A study of Homo sapiens with 6 samples.

Results

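SMC1 cohesin peaks were compared between IMR90 cells treated with inflachromene (ICM) and control cells of the same passage. All peaks of both SMC1 lists on chromosomes 1 to 22 and X were taken, which gave 14883 control peaks and 17809 ICM peaks, 32692 of the 65603 peaks in the 6 lists of the series. IMR90 is a line of human lung fibroblasts, and ICM is a small molecule that binds the chromatin proteins HMGB1 and HMGB2. The study used it to induce senescence, and the series holds CUT&Tag libraries for CTCF and SMC1 from control, ICM-treated and high-passage senescent cells, with 1 library per group. CUT&Tag sequences the DNA that a transposase, tethered by an antibody to the protein of interest, cuts out of chromatin. The titles of both SMC1 libraries carry the code I79 and passage 16. The control title names no agent, and the ICM title gives neither a dose nor days of treatment. The CTCF library of ICM-treated cells was also at passage 16, with 6 days of treatment, the CTCF control was at passage 21 and the senescent libraries were at passage 34. With 1 library on each side there was no spread between replicates, so the lists were described and no difference between conditions was tested.

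SMC1 (gene SMC1A) is a subunit of cohesin, a ring-shaped complex that holds sister chromatids together and extrudes DNA into loops. Loop extrusion by cohesin is halted at sites bound by CTCF, and cohesin is also found at active promoters and enhancers, where its loader NIPBL resides. In senescence, a lasting arrest of cell division, chromatin loops and larger domains are known to be rearranged.

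The 2 lists differed in shape before any peaks were matched. SMC1 peaks had a median width of 911 bp in control and 754 bp in ICM, and covered 14.8 Mb and 14.6 Mb. The lowest total signal (coverage summed over a peak, in the authors' units) was 3456 in control and 2455 in ICM, and the median of the highest signal within a peak was 20 and 15. No common scale could be set between the lists and the exact number of reads behind each is not known here, so peaks were compared by percentile within their own list, 100 being the highest. Of the markers of the cell type, 7 of 12 fibroblast genes had an SMC1 peak at their promoter in control and 5 in ICM, among them COL1A2, VIM and PDGFRB in both lists. The other 2, COL1A1 and COL6A1, had an ICM peak over the promoter with its summit elsewhere. An endothelial marker promoter was in neither list (0 of 7), and of 11 epithelial markers only KRT8 had a promoter peak, in control. Of 8 blood markers, CD14 had a promoter peak in both lists and CSF1R in control. SMC1A itself had a promoter peak at percentile 42.5 in control and 53.8 in ICM.

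Promoters of genes that carried an SMC1 peak in 1 list and none of the other list over them are shown first, since position at promoters set the classes of peaks apart. The 250 bases before the gene start are given 5′ to 3′ on the strand of the gene, from RefSeq (GRCh38.p14), with matches to any of 9 short motifs in capitals. The first 3 were in the control list only. CHEK2, a DNA damage checkpoint kinase, lies at chr22:28741821-28742070 on the minus strand and faces HSCB, a gene for iron-sulfur cluster assembly. LOX, which encodes the collagen cross-linking lysyl oxidase, lies at chr5:122078260-122078509 on the minus strand, and LMNB1, which encodes lamin B1, at chr5:126776373-126776622 on the plus strand. The other 3 were in the ICM list only. SH3TC2, an endosomal adaptor gene, lies at chr5:149063063-149063312 on the minus strand, EPHB1, an ephrin receptor gene, at chr3:134795010-134795259 on the plus strand, and SHC4, a signalling adaptor gene, at chr15:48963920-48964169 on the minus strand. The single-list peak covered all 250 bases except at LMNB1, where it covered 101.
CHEK2: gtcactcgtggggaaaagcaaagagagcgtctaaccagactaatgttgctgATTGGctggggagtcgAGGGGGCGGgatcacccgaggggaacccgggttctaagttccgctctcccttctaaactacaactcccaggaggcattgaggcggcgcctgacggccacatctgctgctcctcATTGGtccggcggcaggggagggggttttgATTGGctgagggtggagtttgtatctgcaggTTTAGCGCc
LOX: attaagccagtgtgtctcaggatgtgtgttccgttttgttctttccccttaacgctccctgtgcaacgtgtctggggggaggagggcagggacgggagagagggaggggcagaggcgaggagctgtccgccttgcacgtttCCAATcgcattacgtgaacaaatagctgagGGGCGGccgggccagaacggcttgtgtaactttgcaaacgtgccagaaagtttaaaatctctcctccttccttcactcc
LMNB1: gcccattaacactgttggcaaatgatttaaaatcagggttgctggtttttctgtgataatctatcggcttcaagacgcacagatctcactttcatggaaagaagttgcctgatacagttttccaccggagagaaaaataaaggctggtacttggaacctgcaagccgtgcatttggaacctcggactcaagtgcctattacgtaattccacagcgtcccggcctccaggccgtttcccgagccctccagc
SH3TC2: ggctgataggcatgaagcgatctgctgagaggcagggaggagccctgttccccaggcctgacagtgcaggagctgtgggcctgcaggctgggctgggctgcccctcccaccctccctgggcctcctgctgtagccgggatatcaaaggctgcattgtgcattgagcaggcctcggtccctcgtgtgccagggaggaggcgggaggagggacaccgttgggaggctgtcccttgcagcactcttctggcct
EPHB1: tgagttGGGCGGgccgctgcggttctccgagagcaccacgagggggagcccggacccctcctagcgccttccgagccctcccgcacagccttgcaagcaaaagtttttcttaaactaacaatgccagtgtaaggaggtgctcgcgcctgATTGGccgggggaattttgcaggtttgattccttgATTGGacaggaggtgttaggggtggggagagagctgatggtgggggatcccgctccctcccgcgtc
SHC4: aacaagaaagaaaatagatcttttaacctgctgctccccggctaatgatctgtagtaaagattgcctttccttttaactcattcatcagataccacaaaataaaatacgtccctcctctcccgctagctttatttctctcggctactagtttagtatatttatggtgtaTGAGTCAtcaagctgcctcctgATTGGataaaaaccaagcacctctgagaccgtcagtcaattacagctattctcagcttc
The motifs were searched on both strands. The motif of the factor NF-Y was spelled CCAAT, that of the SP and KLF factors GGGCGG, and the core of the motif of CTCF AGGGGGC. E2F factors were represented by TTTNGCGC, the factors of the AP-1 family by TGANTCA and ETS factors by the letters CCGGAAG. CREB and ATF factors were represented by TGACGTCA, NRF1 by GCGCATGCG and the box at which transcription factor TFIID is placed by TATAAA. The window of CHEK2 held 3 CCAAT matches, 1 E2F match and 1 AGGGGGC match, which overlapped a GGGCGG match. LOX had 1 CCAAT match and 1 GGGCGG match, while LMNB1 and SH3TC2 had none of the 9 motifs in these letters. EPHB1 held 2 CCAAT matches and 1 GGGCGG match, and SHC4 held 1 CCAAT match and 1 AP-1 match. Among 14541 protein-coding genes with such a sequence (300 bases, from 250 before to 50 after the start), CCAAT was found in 36.7%, GGGCGG in 59.1%, AGGGGGC in 17.7%, CCGGAAG in 14.7% and TTTNGCGC in 2.49%. A sequence was at hand for 79.2% of the genes with a promoter peak in control only, under the 80% required, so a comparison of letters over that set is void. For genes with a promoter peak in both lists (82.3% with a sequence) and in ICM only (80.3%), CCAAT was found in 43.99% and 33.8%, GGGCGG in 74.97% and 70.1%, AGGGGGC in 20.9% and 16.03%, CCGGAAG in 21.4% and 26.7%, and TTTNGCGC in 3.99% and 0.855%, the last of these in 4 of 468 promoters. The other 4 motifs were each in 3.79% to 5.34% of either set.

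Matching of whole peaks showed that most SMC1 sites were kept. A control peak overlapped an ICM peak by 1 bp or more in 11987 of 14883 cases, and 2896 control peaks had no ICM peak, a share of 19.5% (95% CI 18.8 to 20.1, exact binomial). Of the ICM peaks, 5670 of 17809 had no control peak, a share of 31.8% (31.2 to 32.5). Intervals here and below cover counting over peaks only, not variation between cultures. The excess of ICM-only peaks depended on the lengths of the lists, as in lists of 14883 peaks each, cut by total signal, 25.1% of ICM peaks and 25.8% of control peaks were unmatched. With matching by 100 bp windows around summits, the unmatched shares were 45.6% and 34.9%.

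Matched peaks lay on top of each other. There were 11681 one-to-one pairs with a median overlap of 707 bp, and their summits were a median of 33 bp apart, 81.1% of them by less than 100 bp. A further 206 control peaks spanned 2 or more ICM peaks and 56 ICM peaks spanned 2 or more control peaks. At the edge of the rule, the smallest overlap was 4 bp and 7 pairs overlapped by less than 10 bp, whereas 16 control-only and 34 ICM-only peaks had a peak of the other list less than 100 bp away. Most unmatched peaks were far from that edge, with a median gap to the nearest peak of the other list of 23.1 kb for control-only and 26.8 kb for ICM-only peaks.

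Peaks found in 1 list were mostly weak ones. The share without a partner fell from 45.7% in the lowest decile of the control list by total signal to 0.604% (9 peaks) in the highest, and from 67.8% to 0.281% (5 peaks) in the ICM list. The median percentile was 22.96 for control-only and 58.0 for matched control peaks, and 25.2 for ICM-only and 64.0 for matched ICM peaks. Ranked by highest signal, ICM-only peaks sat higher, at a median percentile of 35.0 against 20.5 for control-only peaks. Above the median total signal of each list, 10.4% of ICM and 5.54% of control peaks were unmatched, a count made after the data were seen.

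**Figure D1:**
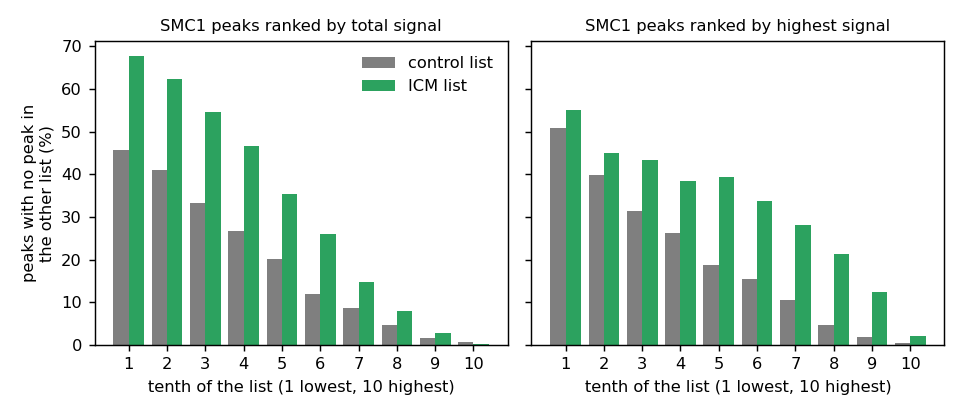
Share of SMC1 peaks (%) without an overlapping peak in the other list, by decile of the peak's own list, ranked by total signal (left) and by highest signal (right); grey bars are the control list and green bars the ICM list. By total signal the bars fall from 45.7% and 67.8% in the lowest decile to 0.604% and 0.281% in the highest.

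The position of the peaks separated the classes. Peaks with a summit no more than 1 kb from the outermost 5′ end of any gene were classed as promoter, other peaks inside genes as gene body and the rest as intergenic. ICM-only peaks were rarely at promoters, 710 of 5670 or 12.5% (11.7 to 13.4), against 39.8% of matched ICM peaks, a difference of -27.3 points (-28.5 to -26.0). Control-only peaks were at promoters more often than matched control peaks, 1327 of 2896 or 45.8% against 39.9%, a difference of 5.95 points (3.94 to 7.97). Gene bodies held 57.6% of ICM-only and 38.2% of control-only peaks, and intergenic DNA 29.8% and 15.99%.

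**Figure D2:**
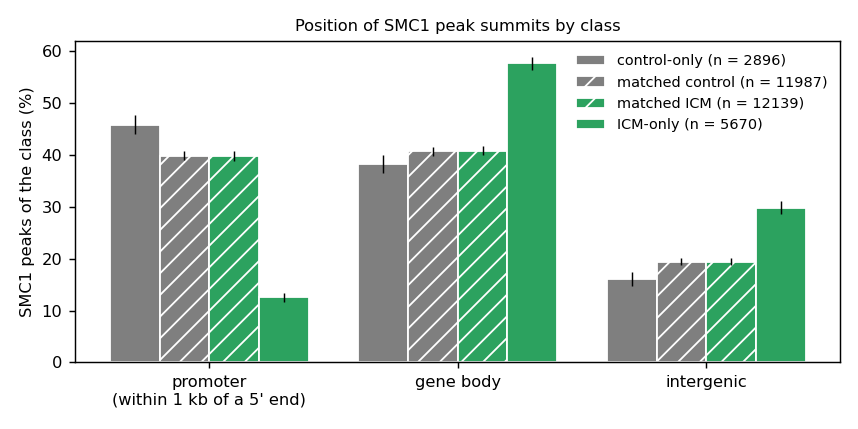
Share of SMC1 peaks (%) with the summit at a promoter, in a gene body or in intergenic DNA, for control-only, matched control, matched ICM and ICM-only peaks; error bars are exact 95% binomial intervals over peaks. ICM-only peaks stand apart with 12.5% at promoters and 57.6% in gene bodies, while matched peaks of the 2 lists are alike at 39.9% and 39.8% at promoters.

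The same contrast was seen among peaks of like rank. In the lowest decile of the ICM list 14.0% of ICM-only and 41.4% of matched peaks were at promoters, and in the eighth decile it was 9.93% and 38.8%. In the lowest decile of the control list 37.9% of control-only and 21.8% of matched peaks were at promoters, and in the sixth decile 59.6% and 38.3%. The control-only share was higher in deciles 1 to 8 and lower in deciles 9 and 10, which held 25 and 9 control-only peaks. The difference for ICM-only peaks ran from -14.8 to -29.3 points over the other settings tried and that for control-only peaks from 4.51 to 9.65 points.

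The median distance from the summit to the nearest 5′ end was 14.97 kb for ICM-only, 1.80 kb for control-only, 3.68 kb for matched ICM and 3.76 kb for matched control peaks. Between 10 and 100 kb from a 5′ end lay 53.6% of ICM-only and 30.1% of control-only peaks, and beyond 100 kb 5.93% and 1.97%. Those ICM-only peaks that were at promoters were less often at protein-coding genes, with 67.2% at protein-coding and 25.8% at lncRNA genes, against 82.6% and 14.8% for control-only promoter peaks. By chromosome, the ICM-only share was lowest on chromosome 19 (22.2%) and highest on chromosome 18 (38.2%), and the control-only share ran from 11.3% on chromosome 21 to 38.3% on X.

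Several long genes collected ICM-only peaks along their bodies, and these were picked after the counts were seen. FGGY, which encodes a carbohydrate kinase, held 8 ICM-only and 0 control-only peaks over 466 kb. SLC8A1, a sodium-calcium exchanger gene, held 7 and 0 over 415 kb, and NRG1, which encodes the growth factor neuregulin 1, 7 and 0. The calcium channel gene CACNA1C held 8 ICM-only and 2 control-only peaks, and the potassium channel gene KCNMA1 7 and 3. CUX1, a homeobox factor gene, and RAD51B, a gene for homologous recombination, held 6 and 0 each. Of 19630 protein-coding genes, 112 held 3 or more ICM-only and no control-only peak, and 9 held 3 or more control-only and no ICM-only peak. In the background, 3268 ICM-only and 1106 control-only peaks lay in gene bodies, of 5670 and 2896 single-list peaks. The counts per gene were not adjusted for this excess or for gene length, so they do not show clustering at particular genes. CRIM1, a gene for a transmembrane BMP antagonist, held 3 control-only and 0 ICM-only peaks, and ITGB5, which encodes integrin beta 5, held 4 control-only and 3 ICM-only ones.

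Ordered by the lower of the 2 percentiles, the 8 strongest ICM-only peaks were all away from promoters, although by total signal alone the promoter peak of SH3TC2, at percentile 91.9, was above 7 of them. The first ICM-only peak lay at chr16:3171837-3172611, 15.9 kb upstream of the olfactory receptor gene OR1F1, at percentile 90.4 by total and 93.9 by highest signal. The second was at chr6:3247021-3248041, 7.12 kb upstream of PSMG4, a proteasome assembly chaperone gene, at 90.8 and 90.3. The fifth stood alone at chr3:109532349-109533145, in intergenic DNA 942 kb from the nearest control peak. The eighth was inside CMSS1 and FILIP1L at chr3:100002724-100003424, 140 kb from the nearest control peak. The remaining 4 lay in CAND1.11, LOC102723825 and LINC02941 and upstream of RNU6-471P. Of the 8, picked for high rank, 6 overlapped a peak of the senescent SMC1 list, against 27.1% of all ICM-only peaks.

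The 8 strongest control-only peaks in the same order were mostly away from promoters, although 45.8% of all control-only peaks were at promoters. The first, at chr9:93669318-93671564 inside PHF2, a histone demethylase gene, was at percentile 96.9 by total and 88.4 by highest signal, 10.3 kb from the nearest ICM peak. The second lay 20.4 kb upstream of CCDC200 at chr17:43251502-43252043, at 85.2 and 99.3. The seventh and the eighth were the promoter peaks of FAAP100, of the Fanconi anaemia core complex, at 83.8 and 77.6, and of the pair CHEK2 and HSCB, at 76.2 and 77.6. The other 4 lay in SBF2-AS1, LOC105372666 and GRAMD2B and in intergenic DNA. The intergenic one was 181 kb from the 5′ end of SIRLNT, the nearest 5′ end among genes with a known strand. Of these 8 peaks, 5 overlapped a senescent SMC1 peak, against 30.8% of all control-only peaks.

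Among matched sites the order of peaks changed moderately. Across the 11681 pairs the percentiles of the 2 lists correlated with a Spearman coefficient of 0.680 by total signal and 0.728 by highest signal, given as a description over peaks that share their libraries. By total signal 2136 pairs (18.3%) were higher in ICM by 25 points or more and 1052 (9.01%) lower. By highest signal the shares were 11.97% and 10.7%, and in lists of equal length by total signal 13.4% and 12.5%, so the surplus of rises depended on the column and the list length. Both columns moved by 25 points in the same direction in 875 rises and 448 falls, and in opposite directions in 32 pairs. Width moved with total signal, the median ratio of ICM to control width being 1.07 in rises, 0.631 in falls and 0.907 over all pairs.

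**Figure D3:**
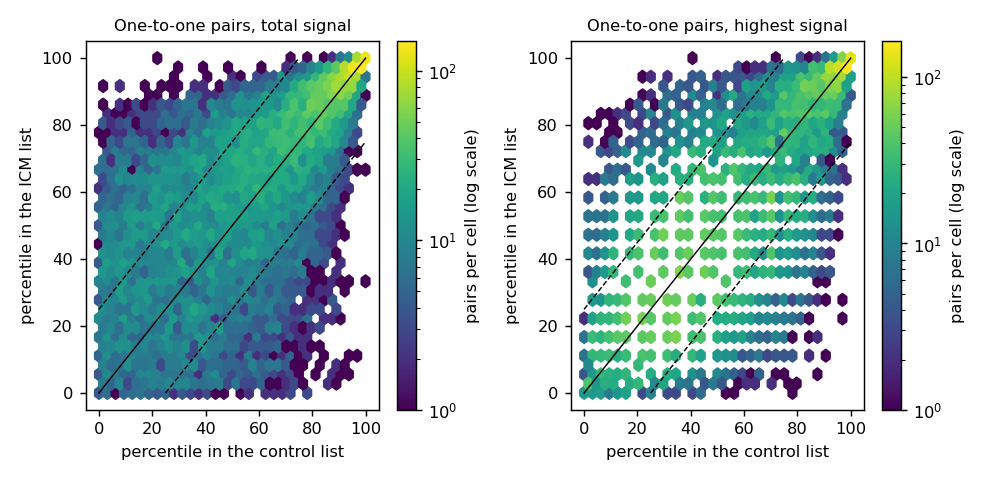
Percentile of each one-to-one SMC1 peak pair in the control list (horizontal) and the ICM list (vertical), by total signal (left) and highest signal (right); colour is the number of pairs per cell on a log scale, the solid line marks equal percentiles and dashed lines a shift of 25 points. Pairs crowd at the top right, and 18.3% lie above the upper and 9.01% below the lower dashed line by total signal.

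Rises and falls had different positions, as gains and losses did. Promoters made up 20.1% of pairs that rose by total signal, 55.5% of those that fell and 39.6% of all pairs. The median shift was -0.65 points for 4622 promoter pairs, 7.72 for 4770 gene-body pairs and 9.47 for 2289 intergenic pairs. By highest signal, which does not add up over width, it was -3.88, 4.19 and 5.33 points. Over all pairs the median shift was 3.65 points by total and 0.716 by highest signal. By either column the median of promoter pairs thus lay below that of all pairs, and the medians of the other pairs above it. Shifts by place were not computed in lists of equal length.

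**Figure D4:**
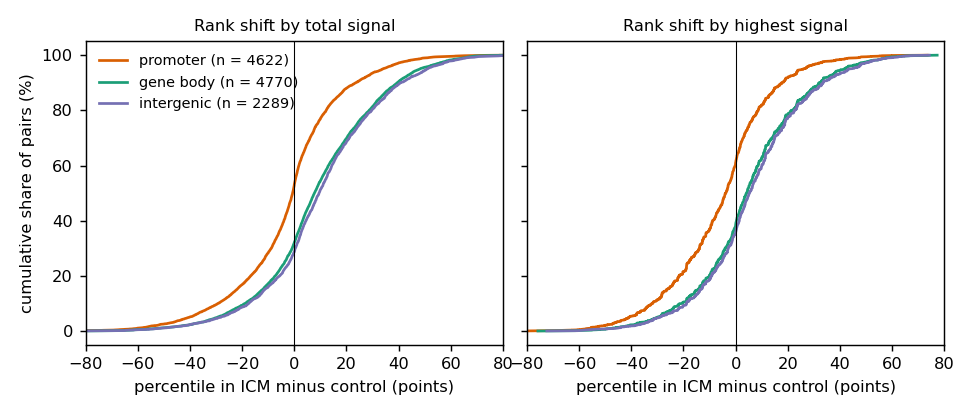
Cumulative share of one-to-one pairs (%) by percentile in ICM minus percentile in control (points), for promoter, gene-body and intergenic pairs, by total signal (left) and highest signal (right). The promoter curve lies left of the other two, with median shifts of -0.65 against 7.72 and 9.47 points by total signal.

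The largest rises, ordered by the smaller of both percentile changes, were mostly in gene bodies. The peak 9.50 kb inside PTPRU, a receptor tyrosine phosphatase gene, at chr1:29245277-29246380 went from percentile 11.8 to 85.4 by total signal and from 3.13 to 80.3 by highest signal. A further one inside CMSS1 and FILIP1L, at chr3:99843275-99844314, went from 24.95 to 92.6 and from 15.8 to 84.5, at the locus that also held the ICM-only peak above. A peak inside HPCAL1, which encodes a neuronal calcium sensor, rose from 2.90 to 69.3 by total signal, and 1 peak 13.8 kb upstream of STRN4, a striatin gene, from 7.88 to 86.0. The only promoter among the 8 was that of the lncRNA LOC105376364, from 4.38 to 81.6. The remaining 3 were in LOC101927993, in LOC105378813 and in intergenic DNA at chr16:46389638-46390866, which went from 1.67 to 91.0.

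The largest falls were promoters in 4 of 8 cases. The promoter peak of TUBGCP5, a subunit of the gamma-tubulin ring complex, went from percentile 92.7 to 10.2 by total signal and from 91.5 to 10.9 by highest signal. VPS35L, of the endosomal commander complex, went from 88.4 to 27.9, BAZ1B, a chromatin remodeller gene, from 78.4 to 19.1, and DIAPH1, which encodes an actin-nucleating formin, from 71.2 to 12.02. The peak inside DOCK6 shrank from 4334 to 752 bp in width and went from 99.9 to 32.1 by total signal. A peak 2.53 kb upstream of the collagen gene COL1A1 went from 73.8 to 9.12. The last 2 were a peak inside NNMT, the gene of nicotinamide N-methyltransferase, from 69.4 to 7.90, and an intergenic peak near RNU6-178P.

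At the level of genes, more promoters had an SMC1 peak in control alone than in ICM alone. The 5′ end was known for 19630 protein-coding genes, of which 4844 (24.7%) had a promoter peak in both lists, 1371 (6.98%) in control only, 583 (2.97%) in ICM only and 12832 in neither. With a peak of any kind over the window counted, 84 of the 1371 had an ICM peak there and 58 of the 583 a control peak, because only the summit lay elsewhere. In equal lists cut by highest signal the shares were 10.7% and 1.47%, and by total signal 8.94% and 1.99%.

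For most of the strongest of these genes the other list also had a peak at the promoter. All 8 genes named by rule as control only (MTMR4, THBS1, PPP1R18, KDM6B, COL1A1, SLC39A13, POLD4 and SETD5) and 6 of the 8 named as ICM only (CAV1, ZC3H10, CELSR3, OXSR1, RGMB and TNFRSF12A) had a peak of the other list over the window. At CAV1, which encodes the coat protein of caveolae, 1 control peak of 2596 bp at percentile 99.8 overlapped 2 ICM peaks of 958 and 884 bp at 98.7 and 97.7. The control summit lay 1288 bp downstream of the start, and the ICM summits 286 bp upstream and 1289 bp downstream. At COL1A1, the main fibrillar collagen of fibroblasts, control had peaks with summits 26 bp upstream and 1101 bp downstream of the start, at 88.4 and 96.6, which a single ICM peak of 2344 bp at 99.8 overlapped, with its summit 1317 bp downstream. At THBS1, the gene of the matrix protein thrombospondin 1, both lists held a peak near the very top (99.97 in control and 99.98 in ICM), with the summit 99 bp upstream of the start in control and 1139 bp upstream in ICM. At MTMR4, a phosphoinositide phosphatase gene, the summits were 991 and 1055 bp downstream of the start, on either side of the 1 kb limit.

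Genes without any peak of the other list over the promoter were of lower rank. In ICM only they were led by SH3TC2, at percentile 91.9 by total and 75.1 by highest signal, ANGPT1, which encodes the TIE2 ligand angiopoietin 1, at 74.9 and 84.5, and EPHB1 at 85.8 and 67.9. In control only they were led by FAAP100, CHEK2 with HSCB, STIL, a centriole duplication gene, at 76.2 and 86.5, and LOX at 92.0 and 75.8. This order was set after the overlaps at the genes above were seen.

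Lists of genes with roles in fibroblasts and senescence were then read against all genes. Of the 6215 protein-coding genes with a control promoter peak, 22.1% had none in ICM, and of the 5427 with an ICM promoter peak, 10.7% had none in control. Where both lists had a promoter peak, 13.3% of the 4844 genes ranked lower in ICM by 25 points or more by total signal and 7.89% higher, with a median shift of -1.21 points. A fall of this size was open only to peaks above percentile 25 in control, and the starting ranks of the lists differed. The lists were chosen with earlier results in view, so their counts are descriptions.

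**Figure D5:**
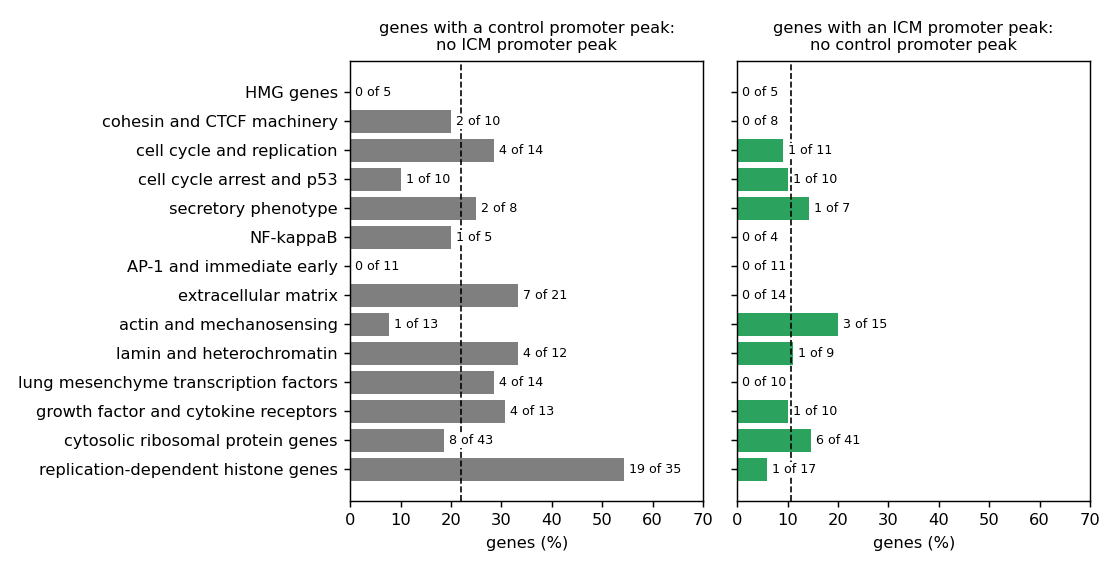
For 14 gene lists, the share of genes with a control promoter peak that had no ICM promoter peak (left) and the share of genes with an ICM promoter peak that had no control promoter peak (right), in percent, with the counts printed; the dashed lines are all protein-coding genes, 22.1% and 10.7%. Replication-dependent histone genes reach 54.3% on the left, while the AP-1 and HMG lists are at 0.

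Extracellular matrix genes with a promoter peak in both lists mostly ranked lower in ICM. Of 21 with a control promoter peak, 7 (33.3%, against 22.1% of all genes) had no ICM summit there, and 0 of 14 the reverse. They were LOX, BGN (the proteoglycan biglycan), TIMP3 (an inhibitor of matrix metalloproteinases), COL1A1, COL6A1, COL6A3 and THBS1, and the last 4 had an ICM peak over the window with its summit elsewhere. Without any ICM peak over the window were thus 3 of 21 (14.3%), below the 20.7% of all genes. Of the 14 with both peaks, 11 were below their control percentile, against 2674 of 4844 among all genes. The median shift was -13.8 points, and 5 fell by 25 points or more by total signal, 3 of them by both columns. FN1, the gene of fibronectin, went from percentile 83.2 to 38.9, COL5A2 from 67.0 to 20.98 and TNC, which encodes tenascin C, from 71.5 to 10.1. By highest signal TNC went from 11.7 to 35.0, while FN1 and COL5A2 fell by both columns.

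Replication-dependent histone genes, which are transcribed in S phase, had the largest share of control-only promoters among the 14 lists, 19 of 35 (54.3%), with 1 in ICM only, H4C5. They were H1-1, H2AC4, H2AC7, H2AC13, H2AC14, H2AC15, H2AC16, H2AC17, H2BC7, H2BC9, H2BC10, H2BC13, H2BC14, H2BC15, H2BC17, H3C4, H3C7, H4C1 and H4C3. Because many of these genes share a promoter, the 19 rested on 13 peaks, such as that between H2AC15 and H2BC15 at percentile 63.9 and that between H2AC13 and H2BC13 at 59.0. The 16 with both peaks rested on 10 pairs of peaks, of which 9 were below their control percentile, with H2BC5 at 69.9 in control and 27.8 in ICM. Counted by gene, 14 of the 16 were below it, against 2674 of 4844 among all genes. Histone genes are near copies of each other, and how reads with several matches were treated is not given in the sources used here, so the values of single members are uncertain.

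Genes for the cell cycle and replication were in control only about as often as all genes. CCNB1 and CCNB2, the mitotic B cyclins, MCM5, a helicase subunit, and TYMS, thymidylate synthase, made up 4 of 14 control promoters (28.6%, against 22.1% of all genes), at percentiles of 43.1, 27.1, 21.6 and 60.1. Only the helicase gene MCM4 was in ICM alone, at 72.1 by total but 22.3 by highest signal. Of the 10 with both peaks, 7 ranked lower and 3 higher in ICM by total signal, against 2674 lower of 4844 among all genes. CDC25A, a phosphatase that activates cyclin-dependent kinases, went from 61.8 to 0.0309, MCM3 from 71.9 to 14.0 and CDC6, the replication licensing factor, from 69.7 to 35.9. These 3 fell by 25 points or more in both columns. TOP2A rose from 65.7 to 84.1 by total signal, while PCNA (97.2 and 99.4), AURKA (88.4 and 88.5) and CDC20 (83.0 and 83.0) changed little.

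Genes of the nuclear lamina and heterochromatin had 4 of 12 control promoters (33.3%, against 22.1% of all genes) not in ICM, a small count. LMNB1 had a control peak at percentile 69.2 with its summit 257 bp downstream of the start, and no ICM peak over the promoter. A second LMNB1 peak, with its summit 1792 bp downstream in control and 1826 bp in ICM, was in both lists, at 54.0 in control and 74.4 in ICM. The other 3 were EED, at 65.7, and EZH2, at 19.6, both of the Polycomb complex PRC2, and SETDB1, a histone methyltransferase gene, at 24.6. DNMT3A, a DNA methyltransferase gene, was in ICM only at 20.3. EZH1 went from 63.1 to 10.5 and CBX3, which encodes HP1 gamma, from 88.9 to 55.0 by total signal. By highest signal EZH1 went from 63.5 to 16.3, but CBX3 only from 83.9 to 77.9.

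Transcription factors of the lung mesenchyme mostly ranked lower in ICM. TWIST1, HOXB5, MEIS1 and NR2F2 were control only (4 of 14, 28.6%, against 22.1% of all genes), at percentiles of 47.4, 59.0, 34.8 and 31.7. Of the 10 with both peaks 9 ranked lower in ICM, against 2674 of 4844 among all genes. The median shift was -22.3 points by total and -19.4 by highest signal. By total signal 5 fell by 25 points or more, 2 of them by both columns. TBX2 went from 98.0 to 59.9, ZEB1 from 94.8 to 67.4 and MEIS2 from 49.2 to 8.99.

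The genes of the cohesin machinery had a share of control-only promoters near that of all genes, 20.0% against 22.1%. Of 10 with a control promoter peak, STAG2 and WAPL, a cohesin subunit and the factor that releases cohesin, had none in ICM, at the low control percentiles of 6.38 and 35.7. SMC3 went from 84.2 to 56.7, while MAU2, the partner of the loader NIPBL, went from 37.9 to 63.2. STAG1 (99.7 and 98.8) and CTCF (95.7 and 91.1) were near the top of both lists. Of the HMG genes, 5 of 10 had a promoter peak in both lists and none in 1 list only. HMGB1 stood at 90.9 in control and 96.6 in ICM, and HMGB2 at 96.6 and 88.9, so the genes of both ICM targets kept a strong SMC1 peak.

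Genes for arrest and the secretory phenotype gave small counts, with 1 of 10 and 2 of 8 control promoters not in ICM. CDKN2A, which encodes the inhibitors p16 and ARF, had a peak at its outermost 5′ end in ICM only, at percentile 66.6 by total but 6.66 by highest signal. Other starts of CDKN2A were not examined, so this peak is not assigned to the promoter of p16. CDKN2B next to it had a strong peak in both lists, at 96.5 and 98.5. RB1 was control only at 10.5. SESN1, a p53 target, went from 85.4 to 14.4 by total signal and from an already low 20.5 to 3.46 by highest signal. BTG2, an antiproliferative gene, went from 38.4 to 71.96 by total but from 11.7 to 6.66 by highest signal. Of the secretory genes, IGFBP5 and IGFBP7, which encode carriers of insulin-like growth factors, were control only, and AREG, an EGF receptor ligand, was ICM only at 11.2. IL6 stayed at 92.4 and 93.9 and VEGFA at 96.8 and 98.98.

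All 11 immediate early genes with a promoter summit in control also had one in ICM. With a peak of any kind over the window counted, FOSB and EGR3 had one in control only and KLF4 in ICM only. JUN (99.9 and 99.9), FOSL2 (95.8 and 98.3) and EGR1 (99.5 and 97.7) stayed near the top, whereas FOS went from 95.7 to 51.2 and JUNB from 93.9 to 33.7. By highest signal FOS went from 52.9 to 3.46, but JUNB only from 79.2 to 77.9. Among NF-kappaB genes, NFKBIE, an inhibitor of the pathway, was control only at 36.2. All 4 with both peaks ranked lower in ICM by total signal, a small count, against 2674 of 4844 among all genes. Their shifts by total signal ran from -3.10 points at RELB to -22.6 points at TNFAIP3.

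Cytoskeletal genes were found in both single-list classes. TAGLN, which encodes transgelin, was control only (1 of 13, 7.69%, against 22.1% of all genes), with a peak of 1796 bp at percentile 89.5. CNN1 (calponin), ANKRD1, a target of YAP signalling, and YAP1 itself were ICM only, 3 of 15 against 10.7% of all genes, yet at percentiles of 1.13, 11.7 and 1.96, and a control peak lay over the YAP1 window. ZYX (zyxin) went from 81.2 to 39.0 and TPM2 from 84.2 to 49.4, and TPM1 from 53.7 to 80.7 by total but from 60.4 to 53.5 by highest signal. Of the receptors, EGFR (54.0), BMPR1A (68.0), FGFR1 (7.19) and IGF1R (9.67) were control only, and IL1R1, the interleukin 1 receptor, was ICM only at 52.9, while PDGFRA went from 40.2 to 78.9 by total but from 1.62 to 3.46 by highest signal. Ribosomal protein genes were near all genes, with 8 of 43 (18.6%) in control only and 6 of 41 (14.6%) in ICM only. Control only were RPL3, RPL8, RPL32, RPL36A, RPLP0, RPS13, RPS24 and RPSA, and ICM only were RPL9, RPL11, RPL31, RPS15A, RPS23 and RPS28.

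The other lists of the series were laid over these classes to ask which of the changed sites were seen elsewhere. Of matched ICM peaks, 69.4% overlapped a senescent SMC1 peak, against 27.1% (25.9 to 28.2) of ICM-only and 30.8% (29.1 to 32.5) of control-only peaks. CTCF peaks of ICM-treated cells overlapped 37.6% of matched ICM, 14.5% of ICM-only and 18.9% of control-only SMC1 peaks. CTCF peaks of control cells, at the other passage, overlapped 28.0%, 7.87% and 14.9%. Peaks of the senescent CTCF list overlapped 33.6%, 18.5% and 18.8%, so that ICM-only and control-only peaks differed little there. Matched peaks were also of higher rank than single-list peaks, and the part of rank in these shares was not tested. By gene, 71.7% of the promoters in both lists, 29.4% of the control-only and 28.3% of the ICM-only ones had a senescent promoter peak. Among the ICM-only genes with one were CDKN2A (at its outermost 5′ end), ANKRD1 and YAP1. Among the control-only genes with one were TAGLN, TYMS and EED. None of LOX, LMNB1, EZH2, CCNB1 or TWIST1 had one.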

How the data were processed

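SMC1 and CTCF were profiled by CUT&Tag in IMR90 cells, per the labels with the CUT&Tag-IT kit. The authors aligned reads to GRCh38 (Bowtie2 2.3.4.1, Picard 2.20.7 and deepTools are named in the submitters' processing notes). Peaks were called for each library with SEACR 1.3 in stringent mode, keeping the top 1%. The study's methods state a scaling on E. coli DNA and peak calling at an FDR cutoff, and name SEACR for the summits. Each deposited list gives a position and 2 signal (coverage) columns, the total and the highest signal of a peak, all whole numbers. Whether these columns were scaled is not known here. The exact read depth of each library is not known here, and low-ranking peaks are the least certain. Groups were taken from the sample titles. Titles at passage 34 carry no treatment, and the series design made them the senescent samples.

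Here whole peaks of the SMC1 control and ICM lists were matched by an overlap of 1 bp or more, and signals were ranked within each list. The summit was the midpoint of the region of highest signal. Genes were those of RefSeq GRCh38.p14, and strands came from the RefSeq promoter table or, by symbol and chromosome, from GENCODE, for 19630 of 19974 protein-coding genes. The GRCh37 genome at hand was not used for positions, so no sequence under peaks is given. Intervals are exact (Clopper-Pearson) for shares and Newcombe's for differences, at 95%. Named peaks were the 8 of each class with the highest lower percentile of both columns, the 8 pairs with the largest change by both columns in each direction, the 8 strongest promoter genes of each single list and every listed gene with a promoter peak in 1 list. The members and gene lists were chosen with earlier results of these data known. The matching code was tested on simulated peaks. Python 3.11.15, pandas 2.3.3, numpy 2.4.6, scipy 1.17.1 and matplotlib 3.10.9 were used. The alternatives tried were other overlap rules, joined peaks, lists of equal length, the other rank column and other promoter definitions. Some items are not reported here.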

Additional observations from a re-analysis of the deposited data

Results flagged for a closer look

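The single peak on mitochondrial DNA in each SMC1 list, set aside from all comparisons, held 20.6% of the listed signal in ICM against 12.4% in control, a signal outside the comparison that was above the control library. Its part in the ranks of the nuclear peaks was not tested.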

How the results depend on the processing

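No paired analysis was possible because each group had 1 library, and for the same reason no library could be left out. The promoter shares of ICM-only peaks stayed below, and those of control-only peaks above, those of matched peaks in every alternative tried. Matching by 100 bp summit windows gave 45.6% unmatched ICM and 34.9% unmatched control peaks, promoter differences of -14.8 and 9.13 points and 8.32% of pairs lower in ICM. A reciprocal overlap of 50% gave 39.4%, 27.5%, -20.4 points and 6.75% for the same quantities, with the control-only difference within its interval. In lists of equal length by total signal, 25.1% of ICM and 25.8% of control peaks were unmatched, 13.4% of pairs were higher and 12.5% lower in ICM, and 8.94% and 1.99% of genes had a promoter peak in control only and in ICM only. By highest signal these were 28.2%, 28.7%, 14.4%, 10.1%, 10.7% and 1.47%, and the promoter differences were -29.3 and 9.65 points. Ranking pairs by highest signal gave 11.97% higher and 10.7% lower. A promoter distance of 2.5 kb gave 3.38% of genes in ICM only, protein-coding genes alone a difference of -25.5 points for ICM-only peaks, and all starts of the RefSeq promoter table, added after the data were seen, -29.2 points. Peaks above the median of their list, also added later, were unmatched in 10.4% (ICM) and 5.54% (control). Joining peaks less than 1 kb apart kept every value within its interval, and so did counting any base of the peak within 1 kb. Shorter lists and stricter overlap by construction leave fewer peaks to match. Other causes were not tested. The depth, not known exactly, limits what absence from a list means: a site below the top 1% of signal is not listed.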
